A study of Arabidopsis thaliana and Setaria viridis and Zea mays with 22 samples.

Results

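The epidermal initials of the Arabidopsis thaliana root tip are described here as the 4 cell clusters numbered 2, 12, 15 and 19, which the authors joined under the name 2_12_15_19_Initials_Epidermis. All cells with that name in the deposited cell table were taken, which gave 5318 of 32790 cells, with 2184 in cluster 2, 1345 in cluster 12, 1110 in cluster 15 and 679 in cluster 19. Of these, 2879 were protoplasts, whole cells whose walls were digested, and 2439 were nuclei released by lysis. The table gives for each cell its count of molecular barcodes (UMIs, 1 per transcript caught) and its number of detected genes, but no expression of single genes. The epidermal marker WER, a MYB transcription factor of the hairless cell fate, could therefore not be read, and the name was not checked against it.

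In the Arabidopsis root the epidermis and the lateral root cap arise from shared stem cells, the epidermal and lateral root cap initials, which surround the quiescent center near the tip. Their daughters divide in the meristem and then take 1 of 2 fates by position: cells over the cleft between a pair of cortical cells become root-hair cells (trichoblasts), and those over a single cortical cell stay hairless (atrichoblasts). WER acts in the hairless position, where it is needed to keep the hair program off.

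All libraries came from strain Col-0. Per the labels, tips were cut at 150 µm, 7 days after plates were set upright, although the age tag reads 10 days, and no treatment is given. There were 6 protoplast libraries, called here by their deposited names ctr1, ctr3248V3, ctr4h, ctr914, ical1 and ical32hV3, which the labels do not explain, and 3 nuclei libraries. The labels give 10x chemistry version 2 for protoplasts and version 3 for nuclei, so preparation and labelled chemistry cannot be told apart, yet 4 protoplast libraries shared 7 to 25 cell barcodes with the nuclei, while ctr1 and ical1 shared 0. The labels do not say whether libraries stem from separate plants. The p-values therefore reflect only how these libraries vary, and that variation may be technical.

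Protoplast libraries held 1085 to 3827 cells and 50723576 to 138202792 UMIs, and nuclei libraries 4561 to 5396 nuclei and 16761417 to 23093915 UMIs. The lowest protoplast of a library had 10002 to 15068 UMIs and the lowest nucleus 1150 to 1211, so cells poor in RNA were cut at different levels. The lowest gene number was 1001 in each nuclei library and 1669 to 2474 in protoplast libraries, so the measure used for the cut may differ too. In ical1 each of 1085 cells was listed 2 times, and the first listing was used. Cell names of ctr1 end in 2 different suffixes, which share 4 barcodes, so that library joins 2 sets of cells. Over all 36 pairs of libraries, 104 barcodes were shared, and in 3 of these both cells were epidermal initials.

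Cluster 2 was the largest of the clusters in all 9 libraries. It took 6.34%, 7.52% and 7.73% of nuclei in replicates 1, 2 and 3, and 4.22% to 8.07% of protoplasts with a median of 6.12%. Cluster 12 took 5.13%, 4.56% and 4.43% of nuclei and 2.47% to 4.55% of protoplasts, with a median of 3.85%. Here 5 of 6 protoplast libraries lay below all nuclei. Cluster 15 took 2.35%, 2.39% and 2.76% of nuclei and 2.05% to 5.57% of protoplasts (median 4.14%), and cluster 19, the smallest in every library, took 1.57%, 1.78% and 1.87% of nuclei and 1.25% to 3.13% of protoplasts (median 2.38%). In cluster 15 the protoplast library ctr4h lay below all nuclei and the other 5 above. The joint share was steadier in nuclei, at 16.1% ± 0.706 (SD, n = 3), than in protoplasts, at 15.8% ± 4.32 (SD, n = 6), where it ranged from 10.2% in ctr4h to 21.2% in ctr914.

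**Figure D1:**
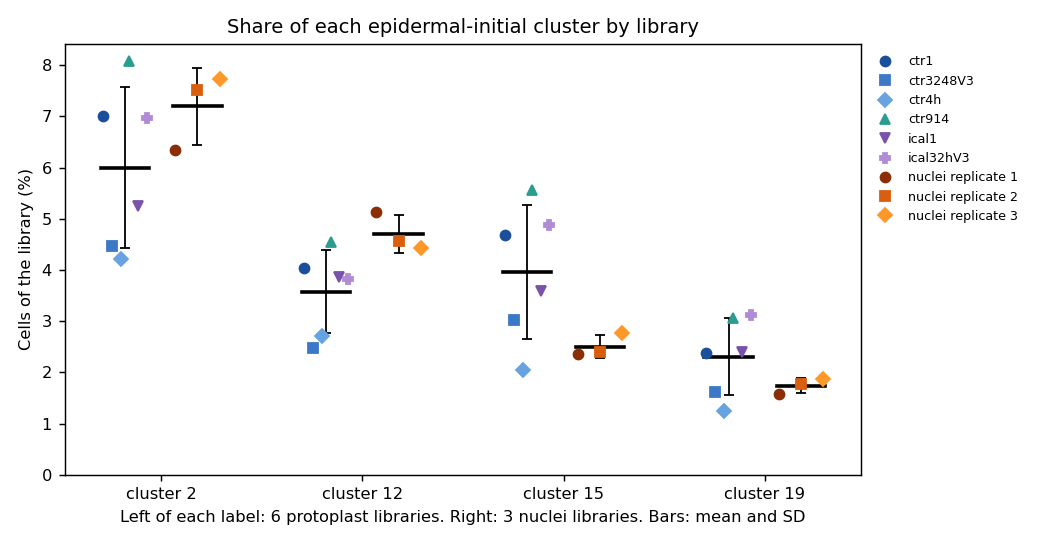
Share of the cells of a library (%, from 0) in clusters 2, 12, 15 and 19, with 1 point per library, 6 protoplast libraries to the left of each label and 3 nuclei libraries to the right, and bars for mean and SD. Protoplast shares spread more widely than nuclei shares, from 2.05% to 5.57% against 2.35% to 2.76% in cluster 15.

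None of the 4 clusters passed the test of its share between protoplasts and nuclei. The log2 fold of protoplasts over nuclei was 0.67 for cluster 15 (SE 0.33, 95% interval −0.07 to 1.41, adjusted p = 0.162 by edgeR's quasi-likelihood test over all 22 clusters of the table). It was 0.40 for cluster 19 (SE 0.33, −0.32 to 1.13, edgeR adjusted p = 0.295), −0.26 for cluster 2 (SE 0.28, −0.87 to 0.35, 0.427) and −0.40 for cluster 12 (SE 0.26, −0.97 to 0.18, 0.250). Of the 22 clusters, 36.4% were called, 18.2% higher and 18.2% lower in protoplasts (4 each), and the median log2 fold was 0.07 over the 4 clusters and −0.33 over all 22. DESeq2, which changes both the scaling and the fit and moved the median over all clusters by 0.25, called 7 clusters higher and 4 lower, among them cluster 15 (0.85, adjusted p = 0.00129) and cluster 19 (0.59, 0.0190). Cluster 15 was also called without ctr4h (0.80, edgeR adjusted p = 0.0466). When protoplasts under 20000 UMIs were left out, clusters 15 and 19 were called (1.49 and 1.13, edgeR adjusted p = 0.00706 and 0.0170). Clusters 2 and 12 then turned to 0.42 and 0.31. That cut took no nuclei, and the median of all cells was 17292, 16709 and 17083 UMIs in ctr3248V3, ctr4h and ical32hV3. Epidermal initials were among the protoplasts rich in UMIs (below), so the cut raises their share by itself. These 2 calls therefore say nothing about a difference in share.

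Within the epidermal initials, nuclei held 2.69, 3.15 and 2.80 cells of cluster 2 for each cell of cluster 15 in replicates 1, 2 and 3. Among protoplasts that ratio was 1.43 to 1.50 in 5 libraries and 2.06 in ctr4h, so all 6 lay below all nuclei. Cluster 12 outnumbered cluster 15 in nuclei, at 2.18, 1.91 and 1.60 cells for each, whereas in protoplasts the ratio was 0.784 to 1.33 and cluster 12 was the larger only in ctr4h and ical1. These ratios do not depend on the number of other cells in a library.

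The log2 ratio of cluster 12 to cluster 15 was −0.11 ± 0.30 in protoplasts (SD, n = 6) and 0.91 ± 0.22 in nuclei (SD, n = 3), a difference of −1.02 (SE 0.33, 95% interval −1.74 to −0.29, limma adjusted p = 0.0317 over all 231 pairs of clusters). That of cluster 2 to cluster 15 was 0.63 ± 0.20 and 1.52 ± 0.12, a difference of −0.89 (SE 0.30, −1.56 to −0.22, limma adjusted p = 0.0363). These 2 of 6 pairs passed, a share no higher than the 42.9% of all 231 pairs (20.3% higher and 22.5% lower in protoplasts), which share clusters and are not independent, so the count sets these clusters apart from no others. The ratio of cluster 2 to cluster 19 (−0.64, SE 0.30, limma adjusted p = 0.115) and that of 12 to 19 (−0.76, SE 0.32, 0.0810) did not pass, although for these too all 6 protoplast libraries lay below all nuclei. By exact permutation of the preparation labels over libraries (84 arrangements) all 4 of these ratios had p = 0.0119, the smallest possible, and an adjusted p of 0.0344. Of all 231 pairs, permutation called 34 higher and 46 lower in protoplasts. All of these called pairs had the smallest possible p, which arises only where the 2 groups do not overlap. Separation without overlap was thus common over the table and does not set these 4 ratios apart. The other pairs did not pass: cluster 2 to 12 differed by 0.13 (SE 0.30, −0.55 to 0.81, limma adjusted p = 0.750) and cluster 15 to 19 by 0.25 (SE 0.29, −0.40 to 0.91, 0.489).

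The limma calls were near the threshold. That of cluster 2 to 15 was lost without ctr1, ctr914, ical1, ical32hV3 or any of the 3 nuclei replicates (differences −0.94 to −0.83, limma adjusted p 0.0540 to 0.144), and that of 12 to 15 without ctr1, ical32hV3 or any nuclei replicate (−1.13 to −0.91, 0.0539 to 0.128). Within the 4 protoplast libraries whose barcodes match those of the nuclei the differences were −0.86 and −1.04 (limma adjusted p = 0.115 and 0.0834). Both calls were also lost without both ical libraries, and without the lowest of 4 equal parts of cells by UMIs. Both were kept without protoplasts under 20000 UMIs.

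**Figure D2:**
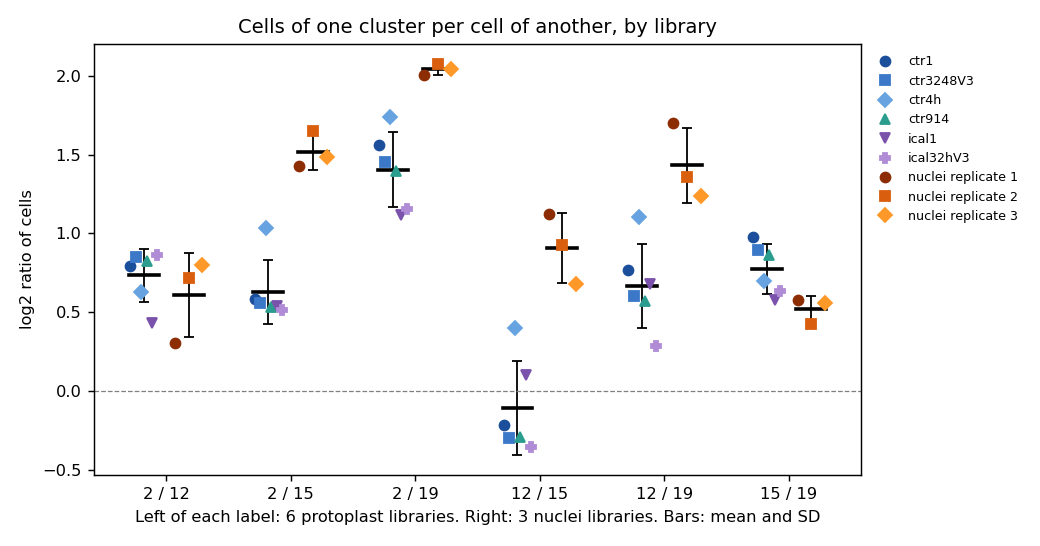
Cells of 1 cluster per cell of another in the same library, as log2 ratio, for the 6 pairs among clusters 2, 12, 15 and 19, with 6 protoplast libraries to the left of each label, 3 nuclei libraries to the right, and bars for mean and SD. Protoplasts lie below nuclei without overlap in the pairs of clusters 2 and 12 with clusters 15 and 19, and overlap with them in 2 / 12 and 15 / 19.

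As a share of the epidermal initials alone, cluster 2 made up 38.1% ± 2.12 in protoplasts (SD, n = 6) and 44.5% ± 2.89 in nuclei (SD, n = 3), and cluster 12 made up 22.9% ± 2.54 and 29.3% ± 3.63. Cluster 15 made up 24.6% ± 2.45 and 15.5% ± 0.885, and cluster 19 made up 14.4% ± 1.65 and 10.8% ± 0.481. Of the protoplast libraries, ctr4h had both the lowest joint share, 10.2%, and the lowest share of cluster 15 within the initials, 20.0%.

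**Figure D3:**
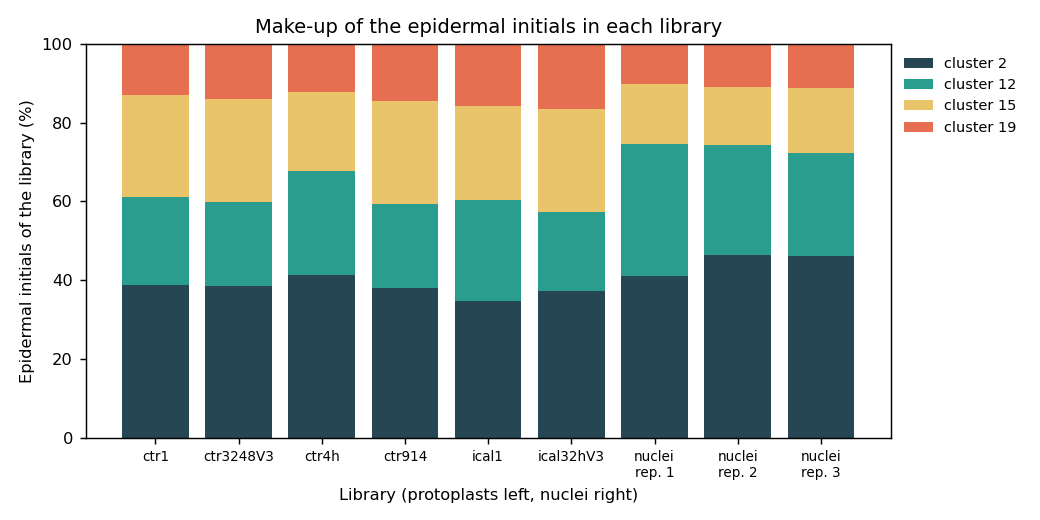
Make-up of the epidermal initials in each library as stacked bars (% of the epidermal initials), with 6 protoplast libraries on the left and 3 nuclei libraries on the right. Cluster 15 takes 20.0% to 26.2% of the bar in protoplasts and 14.7% to 16.4% in nuclei.

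Epidermal initials were among the protoplasts with the most RNA, and near the middle among nuclei. Their median was 31073 to 65540 UMIs per protoplast, 1.36 to 3.79 times the median of all cells of the library. In nuclei it was 2337, 2987 and 3211 UMIs in replicates 1, 2 and 3, or 1.01, 1.07 and 1.08 times the library median. They supplied 25.0% ± 5.08 of all UMIs of a protoplast library (SD, n = 6) while making up 15.8% of its cells, and 16.2% ± 1.32 of the UMIs of a nuclei library (SD, n = 3) while making up 16.1% of its nuclei. Trichoblasts were richer still, at 2.29 to 4.63 times the library median in protoplasts and 1.38 to 1.42 times in nuclei. Atrichoblasts lay at 1.37 to 2.09 and 1.23 to 1.27 times.

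When the cells of each library were ranked by UMIs and divided into 4 equal parts, the lowest part held 2.02% to 7.52% epidermal initials in protoplasts and the highest 20.4% to 42.7%. The share was higher in each part than in the one below it in all 6 protoplast libraries, but the steps differed. In ctr3248V3 it was 2.02%, 2.13%, 4.67% and 37.5% (95% Wilson interval of the last 34.5% to 40.7%, counting error only), and in ctr914 it was 7.52%, 22.3%, 23.8% and 31.4%. In ctr1 the upper 2 parts were alike, at 29.9% and 30.4%. In nuclei the joint share was 13.3% to 15.4% in the lowest part and 14.9% to 18.1% in the highest, but the clusters went different ways. Cluster 12 took 7.46%, 5.70% and 4.30% of the lowest part in replicates 1, 2 and 3 and 2.72%, 3.07% and 2.59% of the highest, so it was scarcer at the top in all 3. Cluster 15 took 1.86%, 1.49% and 1.70% of the lowest part and 2.72%, 3.25% and 3.93% of the highest. Cluster 19 took 1.17%, 0.789% and 0.741% of the lowest and 1.87%, 2.37% and 3.19% of the highest, and cluster 2 took 4.90%, 6.40% and 6.52% and then 7.54%, 7.89% and 8.38%. In protoplasts all 4 clusters were more frequent in the highest part than in the lowest in all 6 libraries, with means of 0.781% and 6.90% for cluster 12 and 0.460% and 8.99% for cluster 15. These shares and the relative UMIs below come from the same UMI counts and are not separate evidence.

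**Figure D4:**
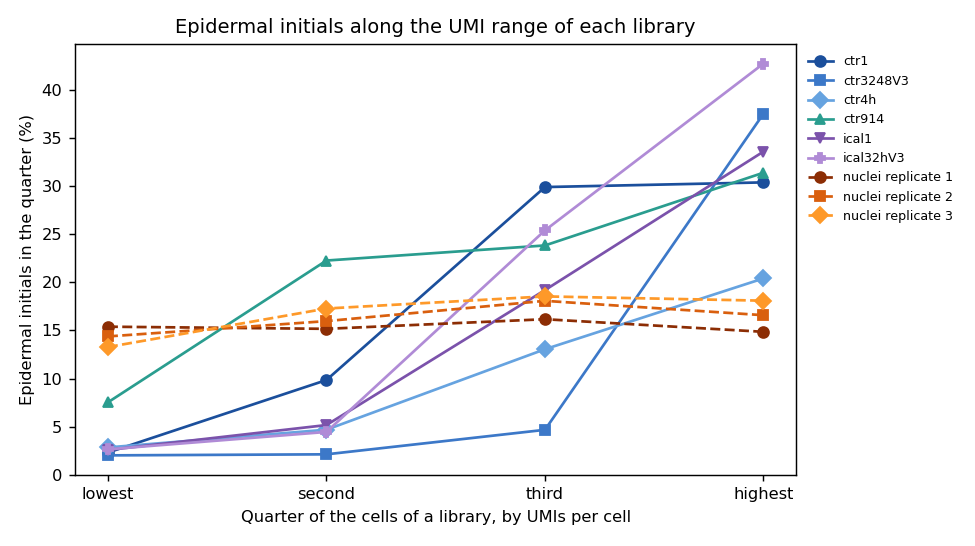
Share of epidermal initials (%, from 0) in each of 4 equal parts of a library's cells ordered by UMIs per cell, with 1 line per library, solid for 6 protoplast and dashed for 3 nuclei libraries. Protoplast lines climb from 2.02% to 7.52% in the lowest part to 20.4% to 42.7% in the highest, while nuclei lines stay between 13.3% and 18.5%.

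Of the 4 clusters, cluster 12 had the largest difference between preparations in relative UMIs, the median log2 UMIs of a cluster minus the median over the clusters of its library (those with at least 10 cells). In nuclei its median was 1892, 2348 and 2745 UMIs in replicates 1, 2 and 3, below the other 3 clusters each time, and it ranked 20, 20 and 16 of 22 clusters. In protoplasts its median ran from 30641 to 57369 UMIs, and it ranked 4 to 7. Relative UMIs were 0.51 ± 0.24 in protoplasts (SD, n = 6) and −0.36 ± 0.12 in nuclei (SD, n = 3), a difference of 0.87 (SE 0.20, 95% interval 0.48 to 1.26, limma adjusted p = 0.000209). All 6 protoplast libraries lay above all nuclei, but how many of the 22 clusters were separated without overlap was not counted.

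Cluster 15 ranked 2 to 4 of 22 in protoplasts, with medians of 35447 to 68531 UMIs, and 8 or 9 in nuclei, with medians of 2632, 3331 and 3578. Its relative UMIs were 0.75 ± 0.31 (SD, n = 6) and 0.09 ± 0.05 (SD, n = 3), a difference of 0.65 (SE 0.20, 95% interval 0.26 to 1.04, limma adjusted p = 0.00392). Cluster 2 had medians of 28632 to 74025 UMIs in protoplasts and of 2664, 3309 and 3301 in nuclei. Its relative UMIs were 0.65 ± 0.34 (SD, n = 6) and 0.06 ± 0.03 (SD, n = 3), a difference of 0.59 (SE 0.20, 0.20 to 0.98, limma adjusted p = 0.00801). In both clusters all 6 protoplast libraries lay above all nuclei. Among named types, relative UMIs of 13_Trichoblast and 5_Atrichoblast were separated in the same way, and those of 8_Initials_QC were not. Such separation was not counted over all 22 clusters, so it does not set the epidermal initials apart.

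Cluster 19 did not pass, at 0.51 ± 0.46 and 0.20 ± 0.25, a difference of 0.31 (SE 0.20, −0.08 to 0.70, limma adjusted p = 0.202). It was the least even of the clusters in UMIs: in protoplasts it ranked from 3 to 13 of 22, with its lowest relative value, −0.10, in ctr914, and in nuclei it had medians of 2535, 3414 and 4505 UMIs and ranked 11, 7 and 1. The groups overlapped.

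**Figure D5:**
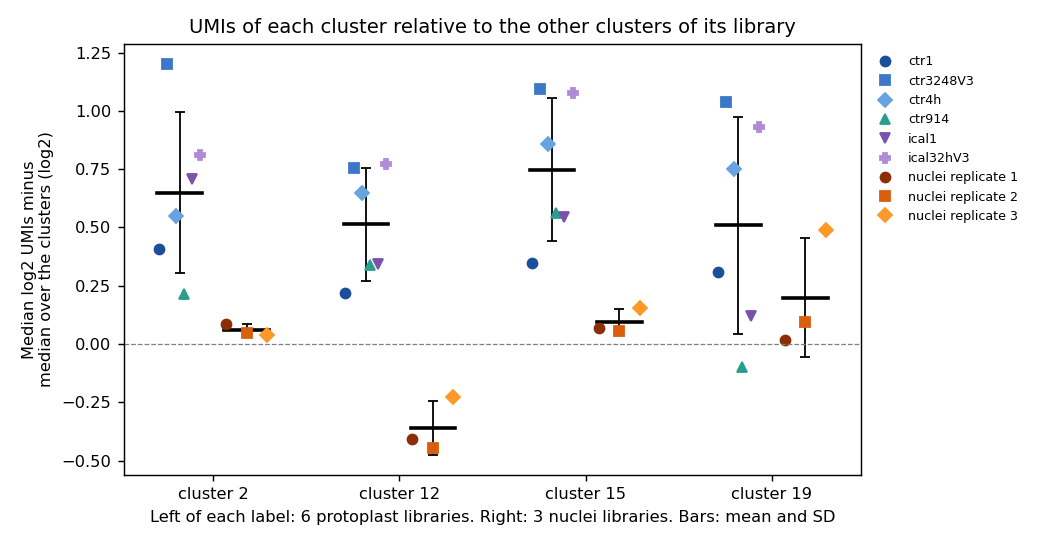
Relative UMIs (log2) of clusters 2, 12, 15 and 19, with 1 point per library, 6 protoplast libraries to the left of each label, 3 nuclei libraries to the right, bars for mean and SD, and a dashed line at 0, the median over the clusters of a library. Cluster 12 is the only one of the 4 whose nuclei lie below 0 (−0.45 to −0.23), and cluster 19 the only one whose groups overlap.

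Thus 3 of the 4 clusters had higher relative UMIs in protoplasts by limma, against 22.7% of all 22 clusters in that direction, 18.2% in the other and 40.9% in either. The trichoblast cluster 13 differed alike (0.66, limma adjusted p = 0.00392), so the shift was not particular to the epidermal initials. Cluster 5 (atrichoblasts) and cluster 8 (8_Initials_QC) did not pass (0.18 and −0.32, limma adjusted p = 0.515 and 0.202). The median difference was 0.62 over the 4 and −0.04 over all 22. limma pooled the spread over clusters, so these 4 share 1 SE. Without protoplasts under 20000 UMIs cluster 12 kept its call (0.61, limma adjusted p = 0.0123), while cluster 2 (0.37, 0.130) and cluster 15 (0.26, 0.265) lost theirs and cluster 19 turned to −0.04. That cut narrows the range of protoplast UMIs by itself, and over all 22 clusters 1 higher and 1 lower were then called. Whether the cuts made before deposit affect these values was not tested. By exact permutation over libraries cluster 12 passed (adjusted p = 0.0437) and clusters 15 and 2 did not (0.0582 and 0.0786). Over all 22 clusters permutation called 2 higher and 4 lower. Cluster 12 was called in all 11 such settings and in all 9 fits that left out 1 library.

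Compared with each other in the same library, the clusters differed less. Cluster 12 held fewer UMIs than cluster 15 in all 9 libraries. Relative to cluster 19, cluster 12 lay at −0.42, −0.54 and −0.71 log2 units in nuclei replicates 1, 2 and 3 and at −0.28 to 0.44 in protoplasts, a difference of 0.56 (SE 0.20, 95% interval 0.14 to 0.98, limma adjusted p = 0.0277 over 231 pairs, of which 48.5% were called, 19.9% higher and 28.6% lower). This call was lost without ctr914, ical1 or any nuclei replicate (0.48 to 0.63, limma adjusted p 0.0501 to 0.107). The other 5 pairs did not pass, with differences of −0.28 (2 to 12) to 0.34 (15 to 19) and limma adjusted p of 0.155 to 0.806. By exact permutation the pair 12 to 15 passed as well (0.22, adjusted p = 0.0387), with 36 higher and 49 lower called over all 231 pairs.

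Within a cluster, UMIs spread over a similar range in both preparations. The upper quartile of UMIs exceeded the lower by 1.44 ± 0.14 log2 units in cluster 2 in protoplasts (SD, n = 6) and 1.25 ± 0.08 in nuclei (SD, n = 3). In cluster 19 it was 1.01 ± 0.21 and 1.20 ± 0.11, in cluster 12 it was 1.37 ± 0.36 and 1.02 ± 0.13, and in cluster 15 it was 1.09 ± 0.29 and 1.25 ± 0.16. The cell with the most UMIs of the whole table, at 393673, was a ctr3248V3 protoplast of cluster 15. Doublets were not called here, and how the authors treated them is not stated.

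The number of detected genes followed the UMIs. Medians ran from 5260 to 8162 genes per protoplast of the epidermal initials and were 1718, 2009 and 2149 genes per nucleus in replicates 1, 2 and 3. Read at given UMIs, as the residual of log2 genes from a curve in log2 UMIs over all cells of a library, the clusters lay close to 0 in both preparations. Cluster 19 was at 0.002 ± 0.017 in protoplasts (SD, n = 6) and 0.035 ± 0.008 in nuclei (SD, n = 3), with 5 of 6 protoplast libraries below all nuclei and a difference of −0.033 (SE 0.014, limma adjusted p = 0.155). It was called only without ctr4h (−0.038, limma adjusted p = 0.0388) among the fits with this measure. Clusters 2, 12 and 15 differed by −0.014 (SE 0.017), −0.014 (SE 0.014) and 0.0005 (SE 0.017), with limma adjusted p of 0.608, 0.495 and 0.979. None of the 4 passed with the raw counts of genes, against 4.55% of all 22 clusters, with 6 of the 22 at an unadjusted p under 0.05. Genes counted from SCTransform-corrected values were taken relative to the median over clusters, with no curve in UMIs. That is another measure, not genes at given UMIs. By it cluster 12 differed by 0.24 (limma adjusted p = 0.00280). Taken as 1 type, the epidermal initials differed by −0.014 (SE 0.013, limma adjusted p = 0.486 over 17 named types, of which 5.88% were called, all higher in protoplasts).

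The epidermal initials were also set against 3 named types chosen as most like them by name. Likeness in expression was not measured, and pairs with the lateral root cap types are not given. UMI differences were tested over all 136 pairs of types, of which 50% were called, 32.4% higher and 17.6% lower. Relative to 5_Atrichoblast, the hairless cells, the initials lay at −0.33, −0.21 and −0.19 log2 UMIs in nuclei replicates 1, 2 and 3, and at −0.01 to 0.86 in protoplasts, a difference of 0.52 (SE 0.20, 95% interval 0.09 to 0.95, limma adjusted p = 0.0441). Relative to 8_Initials_QC, the cells named for the quiescent center and its neighbours, they lay at 0.05, 0.25 and 0.14 in nuclei and at 0.24 to 2.23 in protoplasts, a difference of 1.01 (SE 0.31, 0.34 to 1.68, 0.0160). Against 13_Trichoblast, the root-hair cells, no difference was detected, as trichoblasts held 0.38 ± 0.31 log2 units more in protoplasts (SD, n = 6) and 0.42 ± 0.03 more in nuclei (SD, n = 3), a difference of −0.04 (SE 0.20, −0.46 to 0.39, 0.887). The call against atrichoblasts was lost without ctr1, ical1, ical32hV3 or any nuclei replicate (0.47 to 0.54, limma adjusted p 0.0546 to 0.145). That against 8_Initials_QC was lost without any nuclei replicate (0.96 to 1.06, limma adjusted p 0.0530 to 0.0798).

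In the doubly listed library both listings of a cell had equal UMIs and genes, but each carried its own cluster number. As the listings repeat the same cell, their agreement cannot tell how firmly cells belong to a cluster. Of the 164 epidermal initials of ical1, 155 were given the same cluster in both listings and 9, or 5.49% (95% Wilson interval 2.91% to 10.1%, counting error only), were not. For the cells of other types the share was 4.13% (38 of 921, 3.02% to 5.61%). None of the 9 cells passed to another of the 4 clusters: all left for other named types. From cluster 19, 4 of 26 cells moved, 3 to 5_Atrichoblast and 1 to 16_Undertermided. From cluster 2, 2 of 57 moved, 1 to 13_Trichoblast and 1 to 1_3_G2MphaseCells, from cluster 12, 1 of 42 to 16_Undertermided, and from cluster 15, 2 of 39. In the other direction 6 cells entered, 3 into cluster 15 (2 from 13_Trichoblast and 1 from 5_Atrichoblast) and 3 into cluster 2. Cluster 19 thus had 26 cells in the first listing and 22 in the second.

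The 2 sets of cells in ctr1, of 1660 and 1632 cells, gave alike shares. Cluster 2 took 6.57% (95% Wilson interval 5.47% to 7.86%) and 7.48% (6.30% to 8.85%), cluster 12 took 4.28% and 3.80%, cluster 15 took 4.40% and 4.96%, and cluster 19 took 2.29% and 2.45%. Within each set the median of cluster 12 lay 0.83 and 0.50 log2 units above that of all cells.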

How the data were processed

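Per the submitters' processing notes, the tools were Cell Ranger 5.0.1 and Seurat 4.0 with build TAIR10. The deposited table holds counts of UMIs and genes per cell, not normalized. Per the file headers, it also holds SCTransform sums, treated as a score and used only in 1 alternative, and cluster numbers from integrated data at resolution 0.6. No source used here states the cell filters or the treatment of doublets. The first listing of each ical1 cell was kept. Nuclei libraries were matched to samples by name. The 6 protoplast library names match no single sample, and were put in their group by the deposited preparation column.

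The library was the replicate in every test. For shares, the cell count of each cluster entered a robust quasi-likelihood fit without trend in edgeR 4.0.16, with all cells of a library as its size. Relative UMIs, genes at given UMIs (residuals from a quadratic) and pairs (log2 ratios with a pseudocount of 0.5) were tested with limma 3.58.1 (robust eBayes) on medians over at least 10 cells. DESeq2 1.42.0 and exact two-sided permutation (84 splits, smallest p 0.0119) were alternatives. Benjamini-Hochberg adjustment ran over all clusters or pairs of a table, with a threshold of 0.05. The fits of shares, relative UMIs and cell ratios were run on simulated data with equal spread in both preparations, unlike these libraries. Genes at given UMIs and differences in UMIs were not simulated. Intervals are 95%. A count of 0 allows a share of up to 0.276% in the smallest library (3 of 1085 cells). All 4 clusters were reported by rule. The members and tests were chosen with earlier results of these data known. The second ical1 listing, the first set of ctr1 and the SCTransform values were chosen as alternatives after seeing the data. The grass tables were not used here.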

Additional observations from a re-analysis of the deposited data

Results flagged for a closer look

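In the log2 ratio of cluster 2 to cluster 15, the protoplast library ctr4h stood apart at 1.04, with the other 5 protoplast libraries between 0.52 and 0.58. It was the 1 library so marked among 35 sets of 6 protoplast values, and chance marks about 1 set in 20. The effect of preparation differed between clusters in 3 pairs by limma over all 231 pairs: the log2 ratio of cells of cluster 2 to 15 (−0.89, adjusted p = 0.0363), that of cluster 12 to 15 (−1.02, adjusted p = 0.0317), and the difference in log2 UMIs of cluster 12 from cluster 19 (0.56, adjusted p = 0.0277). Over all 231 pairs 42.9% were called for ratios of cells and 48.5% for UMIs, against 2 of 6 and 1 of 6 among these clusters. Of 9 fits that each left out 1 library, 7, 5 and 5 lost the call, in the order given. Protoplasts lay beyond all nuclei in 6 of 6 libraries in each of these pairs. Such separation was common: for ratios of cells, at least the 34 higher and 46 lower pairs called by permutation over all 231 also had no overlap. For differences in UMIs the pairs without overlap were not counted. The cause of these differences was not tested.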

How the results depend on the processing

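No paired analysis was possible because the protoplast library names carry no replicate number, so no replicate block was run. Of 460 alternative values for 28 results, 386 kept their direction and side of the threshold, 44 lost and 10 gained a call and 20 changed sign. The 460 include the SCTransform values, which are another measure of genes. Only results called in the main fits could lose a call, so the 386 do not measure how stable the calls were. These called results were 3 for relative UMIs, 2 for cell ratios, 1 for UMI differences and 2 for pairs of named types. The causes were not tested. A cut of protoplasts under 20000 UMIs took no nuclei, so it moves shares and relative UMIs by itself. Without those protoplasts, the share differences were 0.42, 0.31, 1.49 and 1.13 for clusters 2, 12, 15 and 19, relative UMIs 0.37, 0.26 and −0.043 for clusters 2, 15 and 19, genes of cluster 15 −0.0010, and the UMI difference of 2 to 15 0.12. Without the lowest of 4 equal parts of cells by UMIs, the share of cluster 12 was 0.056, relative UMIs of cluster 2 were 0.46, cell ratios were −0.083 (2 to 12), −0.88 (2 to 15) and −0.79 (12 to 15), and UMI differences 0.45 (12 to 19), 0.087 (trichoblasts to initials) and 0.39 (initials to atrichoblasts). Without both ical libraries the ratios 2 to 15 and 12 to 15 were −0.84 and −1.01, and these UMI differences 0.55, 0.12 and 0.52, with 0.94 against 8_Initials_QC. With only libraries on the barcode list of the nuclei they were −0.86 and −1.04, and 0.53, 0.038 and 0.53. DESeq2 gave shares of 0.85 and 0.59 for clusters 15 and 19. Exact permutation did not call relative UMIs of clusters 2 and 15 (0.59 and 0.65), and called the ratios 2 to 19 and 12 to 19 (−0.64 and −0.76) and the UMI difference 12 to 15 (0.22). Genes at given UMIs turned to 0.0106 (cluster 12, straight line) and −0.0093 (cluster 15, at least 50 cells). Genes from SCTransform values, which were not read at given UMIs, differed by 0.24 in cluster 12 (limma adjusted p = 0.00280).

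Leaving out 1 library at a time, shares ranged from −0.36 to −0.18, −0.48 to −0.31, 0.54 to 0.80 and 0.30 to 0.53 for clusters 2, 12, 15 and 19, and relative UMIs changed no call. Genes at given UMIs ranged from −0.0088 to 0.0050 in cluster 15 and −0.038 to −0.029 in cluster 19. Cell ratios ranged from −0.027 to 0.22 (2 to 12), −0.97 to −0.83 (2 to 15), −1.13 to −0.91 (12 to 15) and −0.86 to −0.63 (12 to 19, called without ctr4h at −0.85, limma adjusted p = 0.0456). UMI differences ranged from 0.48 to 0.63 (12 to 19), −0.11 to 0.026 (trichoblasts to initials), 0.40 to 0.57 (initials to atrichoblasts) and 0.80 to 1.19 (initials to 8_Initials_QC).

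Counts of calls over the whole table moved by over 1.5 times in places. Clusters with a higher share numbered 4 in the main result, 2 without ctr1, without any nuclei replicate, on the shared barcode list or by permutation, and 7 by DESeq2, and those with a lower share 4 and 2 without nuclei replicate 1. Relative UMIs called 5 higher and 4 lower, and 1 and 1 without protoplasts under 20000 UMIs, with 2 higher by permutation and 1 or 7 lower with all cells as reference or mean log2 UMIs. Genes at given UMIs called 1 higher and 0 lower, and 0 to 5 and 0 to 3 in other settings (named types 1 and 0, and 0 to 3 and 0 to 1). Genes from SCTransform values, another measure, called 2 higher and 4 lower. Cell ratios called 47 higher and 52 lower, and as few as 16 and 28 without nuclei replicate 1. UMI differences called 66 lower, and 21 without protoplasts under 20000 UMIs, and among named types 44 higher and 24 lower, and as few as 25 and 14 without 1 nuclei replicate. Depth limits single values where cells are few, as in ical1 with 26 cells of cluster 19.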
